A study of Caenorhabditis elegans with 2 samples.

Results

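Binding of the zinc finger protein SOMI-1 was examined at 9 genes of Caenorhabditis elegans that drive molting or the switch from larva to adult. They are lin-29, mab-10, bed-3, blmp-1, grh-1, myrf-1, pan-1, mlt-10 and nas-37, taken by name from the 19973 protein-coding genes on the 6 nuclear chromosomes of the Ensembl annotation of WBcel235. All 9 names matched 1 gene each. The rule uses no measured value, but the set was drawn up with earlier results of these data known. The data are chromatin immunoprecipitation sequencing (ChIP-seq) peaks, stretches of the genome where fragments bound by the protein were found more often than in a control. The design has a single group of 2 biological replicates and therefore no conditions to compare. Both were whole young adults of strain OP752, given as male and female together and as 65.5 hours old. Their growth had been synchronised by starving L1 larvae after bleaching. The strain carries the unc-119 allele tm4063 and the transgene wgIs752, in which somi-1 is joined at its C-terminal end to TY1, EGFP and 3xFLAG tags and unc-119(+) is supplied beside it. Chromatin was sonicated to fragments of 200 to 800 bp, and those bound by the fusion were pulled down with anti-GFP antibody. Whole animals were pooled, so the tissue a peak comes from is not known, and fewer cells with a bound site and less binding per cell cannot be told apart. The transgene adds copies of somi-1 to the genome, and no group without it was analysed here.

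A nematode sheds its cuticle at the end of each larval stage, and the epidermis then builds the next one. LIN-29 is the zinc finger factor at the end of the heterochronic pathway, which sets the order of larval cell fates. It directs the lateral seam cells of the skin to stop dividing, fuse and make adult cuticle, with MAB-10, a cofactor of the NAB family. BLMP-1, GRH-1 (a Grainyhead protein), BED-3 and the membrane-bound factor MYRF-1 are transcription factors needed for molting, and PAN-1 is a transmembrane protein that binds MYRF-1. MLT-10 is a secreted protein made in the epidermis before each molt, and NAS-37 is an astacin metalloprotease that helps to free the old cuticle. SOMI-1 is named for its part in the effects of overexpressed mir-84, a microRNA of the developmental timing system.

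Peaks came as 4 lists. The replicate 1 list held 29600 peaks, the replicate 2 list 26067 and the joint list, called on both together, 26266. The thresholded list held the 1667 joint peaks that the authors kept by an irreproducible discovery rate (IDR) procedure, and these were the 1667 of highest signal, from 91.0 upwards. Signal is the score the authors' peak caller gave each peak. It has no stated unit, and the joint list had a median of 39.4 and a maximum of 841. The summit is the position within a peak that the authors marked. The promoter window runs from 1000 bp upstream to 200 bp downstream of any annotated 5′ end of a gene. Many worm transcripts are trans-spliced, so an annotated 5′ end need not be where transcription starts. The joint and thresholded lists pool the replicates and give no error, so the replicates' own values stand beside them. A joint summit is called held by a replicate if it lies inside a peak of that replicate's own list. Pairs of values in brackets are those of replicate 1 and then replicate 2.

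The summits on which the results turn carry the sequences below, taken from the RefSeq copy of WBcel235 and written on the gene's own strand. They run 50 bases to each side of the summit, except where bases past a 5′ end were left out. Capitals mark a match to GAGAGA or GACGCA, or to its reverse complement. The first is the only thresholded peak at any of the 9 genes. The next is an intron summit of the same gene, below the threshold, with the single GACGCA match. The third stands at the 5′ end of mab-10 and was cut to 82 bases before that end, the fourth is the strongest intron summit of lin-29, and the fifth is the strongest summit of nas-37.
myrf-1 promoter, chrII:10502795-10502895, minus strand: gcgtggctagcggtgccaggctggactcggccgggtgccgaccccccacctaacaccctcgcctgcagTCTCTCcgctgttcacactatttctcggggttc
myrf-1 intron, chrII:10501723-10501823, minus strand: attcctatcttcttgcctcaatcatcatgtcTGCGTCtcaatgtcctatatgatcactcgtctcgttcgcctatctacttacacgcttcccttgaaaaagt
mab-10 promoter, chrII:10528002-10528083, plus strand: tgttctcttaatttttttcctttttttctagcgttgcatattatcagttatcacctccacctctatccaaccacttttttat
lin-29 intron, chrII:11928027-11928127, minus strand: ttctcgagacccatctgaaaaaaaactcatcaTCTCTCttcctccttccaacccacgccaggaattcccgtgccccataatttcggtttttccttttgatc
nas-37 coding exon, chrX:9947334-9947434, minus strand: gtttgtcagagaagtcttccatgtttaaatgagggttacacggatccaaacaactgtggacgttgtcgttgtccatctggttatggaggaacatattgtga

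A peak past the IDR threshold was found at myrf-1 and at no other of the 9 genes. The myrf-1 promoter window held a thresholded summit, which makes 1 of 9 genes (11.1%), against 867 of all 19973 protein-coding genes (4.34%). Within the gene bodies no thresholded summit lay at any of the 9, against 2.33% of all genes. Within the body or 5000 bp of it the count was again 1 of 9, against 16.4% of all genes. With 9 genes, 1 more or 1 fewer moves the share by 11.1 percentage points, so no share is shown to differ from that of all genes.

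The full joint list, which holds many weak peaks, reached all 9 genes. It placed 63 summits in their bodies and 5000-bp flanks, 62 of them below the IDR threshold. All 9 genes had at least 1 such summit, but so did 89.0% of all protein-coding genes. All 9 also had a joint summit inside the gene body, where the share of all genes was 43.0%, and each of the 9 was longer than the median gene of 2027 bp. Only 6 of the 63 summits lay in a promoter window, at 4 of the 9 genes (44.4%), against 35.0% of all genes. Of these 4, mab-10 and myrf-1 had a promoter summit held by both replicates, that of pan-1 was held by replicate 2 only and that of bed-3 by neither. The count was 2 with a window of 500 bp upstream and 100 bp downstream, against 23.5% of all genes. It was also 2 with the stronger 13133 peaks, against 21.3% of all genes. With 2000 bp upstream and 500 bp downstream it was 7, against 51.2% of all genes. By annotation, 12 summits fell in introns, 8 in coding exons, 4 in 3′ UTRs, 22 upstream and 17 downstream of the gene they were counted for.

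**Figure D1:**
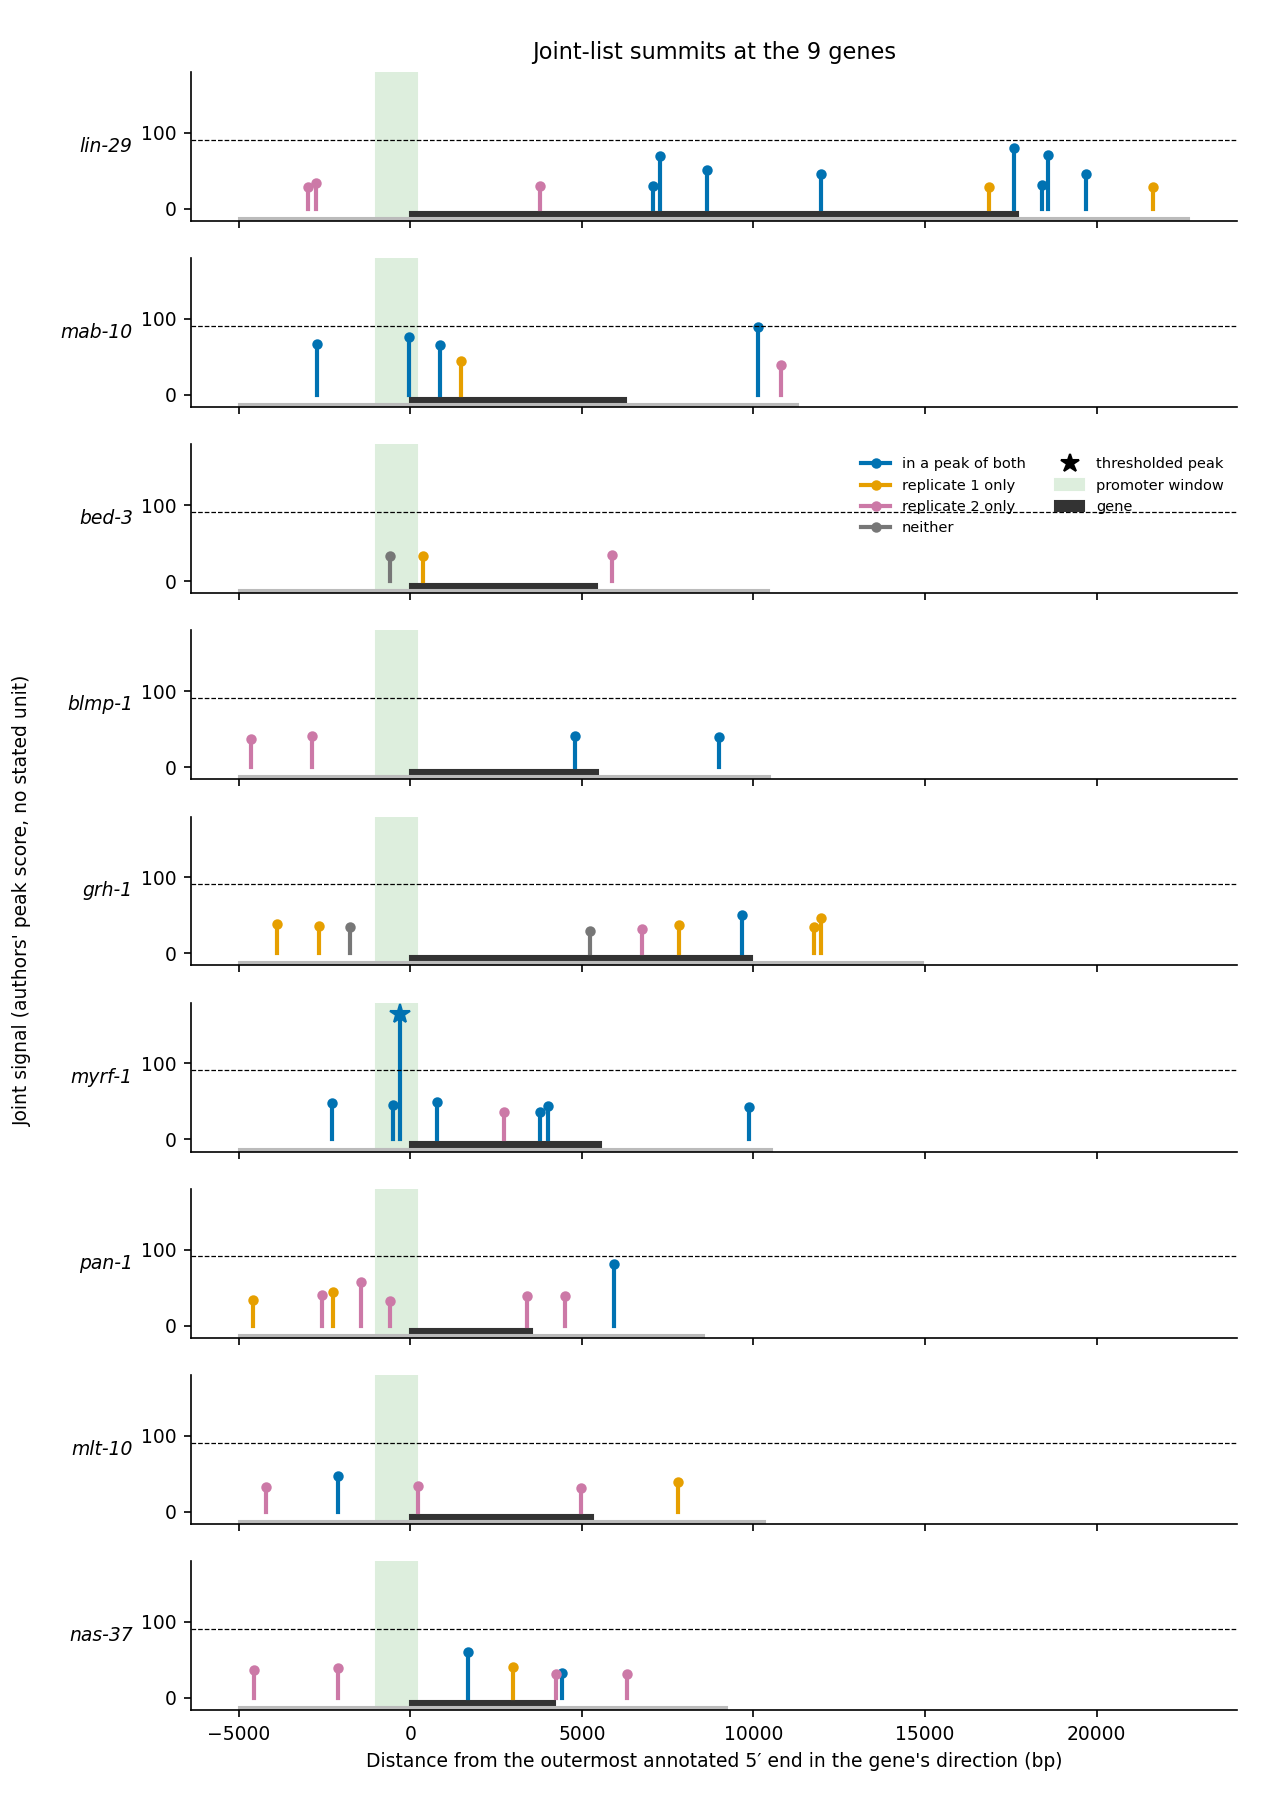
Joint-list summits at each of the 9 genes, by distance from the outermost annotated 5′ end in the gene's direction (bp, x axis) and joint signal (y axis, the authors' score). Colours show which replicates hold the summit, the dark bar is the gene, the grey line below it the stretch searched, the shaded band the promoter window at the outermost 5′ end, and the dashed line the lowest thresholded signal of 91.0. The star at myrf-1, with a signal of 165, is the only thresholded peak.

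At lin-29 (WBGene00003015, chromosome II, 11917642 to 11935343, minus strand), the terminal factor of the timing pathway, summits were many but moderate, and the strongest of them lay in introns and at the 3′ end. The gene had 13 joint summits in reach, 7 of them inside it and 8 held by both replicates. Some neighbouring summits among these 8 share the same replicate peaks. The strongest had a joint signal of 79.7 (rank 2202 of 26266), with 46.1 in replicate 1 and 32.8 in replicate 2. It lay in the 3′ UTR, 115 bp from the end of the gene, and the nearest annotated 5′ end was not that of lin-29 but that of the neighbour hmg-12, at 1244 bp. Next to it a summit inside hmg-12 had a joint signal of 70.1, with 43.6 in replicate 1 and 32.1 in replicate 2. This second summit also lay in the promoter window of vps-15. Both of these 3′ summits were thus present in each replicate, but each stood closer to a 5′ end of hmg-12 than to one of lin-29.

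Within the introns of lin-29, the strongest summit had a joint signal of 69.3 (rank 3038), and the replicates gave nearly equal values there, 35.9 in replicate 1 and 35.6 in replicate 2. It stood 7266 bp into the gene from the outermost 5′ end, and its sequence, shown above, has a GAGAGA match. A summit of joint signal 51.2 (replicates 26.7 and 22.2) and one of 46.1 (replicates 23.7 and 23.7) followed. The summit of 46.1 lay 1940 bp upstream of the internal 5′ end of the shorter lin-29 transcripts, outside the promoter window. The sequence around it consists largely of short repeated units, and how reads map there was not tested. No joint summit fell in any promoter window of lin-29. Replicate 2 alone listed a weak peak there, 409 bp upstream of the outermost 5′ end with a signal of 21.4, and replicate 1 listed none. The nearest thresholded summit was 25520 bp from the gene.

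The gene for the LIN-29 cofactor, mab-10 (WBGene00003107, chromosome II, 10528084 to 10534380, plus strand), had the next highest promoter signal after myrf-1. It lay 32 bp upstream of the outermost 5′ end, with a joint signal of 76.2 and rank 2432, below the threshold. Replicate 1 gave 41.03 and replicate 2 gave 40.1 at this place, though their own summits there stood 129 bp apart. An intron summit 860 bp inside the gene followed (joint signal 65.5, replicates 27.1 and 32.2), and both replicates and the joint list put it at the same base. Another lay 2713 bp upstream (joint signal 66.7, replicates 40.6 and 33.4), inside the promoter window of F59B10.6. So 3 summits at the 5′ side of mab-10 were held by both replicates and none passed the threshold.

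A further promoter-window summit of mab-10 lay 761 bp upstream of an internal 5′ end, within the overlapping non-coding RNA genes R166.8 and R166.9. Its joint signal was 44.01, and it was held by replicate 1 only, with a signal of 33.3. The highest signal in reach of mab-10 stood beyond its 3′ end, 3847 bp outside the gene. This summit, with a joint signal of 89.8 and rank 1710, came just short of the lowest thresholded signal. Replicate 1 gave 43.7 there and replicate 2 gave 38.2. It lay inside R166.3 and in the promoter window of R166.2, 556 bp from the 5′ end of that gene, and not near a 5′ end of mab-10. The nearest thresholded summit was 7814 bp from mab-10.

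The membrane-bound molting factor gene myrf-1 (WBGene00004134, chromosome II, 10496987 to 10502541, minus strand) carried the strongest summit of the 9 genes. It lay 304 bp upstream of the single annotated 5′ end, with a joint signal of 165 and rank 428. Replicate 1 gave a signal of 89.7 there (rank 337 of its own list) and replicate 2 gave 68.6 (rank 742), with summits 7 bp apart. Both replicates thus listed it among their strongest peaks. Its significance value in the joint list, which reads as −log10 of a q-value, was 3.43, the highest there, and 1340 peaks share it. The summit lay inside F59B10.7, a non-coding RNA gene annotated on the opposite strand.

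The summit base and 50 bases to each side of it were 66.3% G or C, the highest value of the 63 summits, whose median was 41.6%. Over all joint summits the median was 40.6%. A weaker joint summit of signal 45.3 stood 199 bp farther upstream, in an overlapping peak. This summit and the other 6 in reach of myrf-1 ran from 35.6 to 48.7 in joint signal, far below the 165 of the first. Of the 8 joint summits in reach, 7 were held by both replicates. The summit of 45.3 is among them because it lies at the edge of the replicate peaks of the strongest summit. Replicate 1 also listed a summit of its own there, with a signal of 46.5, and replicate 2 did not. The intron summit 768 bp inside the gene had a joint signal of 48.7, with 28.7 in replicate 1 and 27.8 in replicate 2, and it holds the GACGCA match shown above. Among the 6990 other genes with a joint summit in the promoter window, those nearest to myrf-1 in their highest signal were C34C12.8 (164, replicates 91.5 and 78.2), T24B8.3 (165, replicates 80.7 and 95.5) and srh-269 (164, replicates 96.9 and 72.1).

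At pan-1 (WBGene00003915, chromosome III, 4562738 to 4566283, plus strand), which encodes the membrane partner of MYRF-1, most summits were seen in replicate 2 only. There were 8 joint summits in reach, of which 1 was held by both replicates, 5 by replicate 2 only and 2 by replicate 1 only. The promoter window held a joint summit 602 bp upstream with a signal of 32.9 (rank 19894), and replicate 2 alone held it, with 18.1. A stronger joint summit stood 1438 bp upstream, outside the window, with a signal of 56.8 (rank 4980). It too was held by replicate 2 only, with 45.3 (rank 2023), and the 5′ end nearest to it was that of pan-1. In its own list replicate 2 had 4 summits in the promoter windows of pan-1, with signals from 18.1 to 24.6, and replicate 1 had none. The summit held by both had a joint signal of 80.7 (rank 2152, replicates 43.7 and 39.5). It lay 2379 bp beyond the 3′ end of pan-1 and 135 bp from the 5′ end of idhg-1, in promoter windows of idhg-1 and mlcd-1.

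Signal at bed-3 (WBGene00009133, chromosome IV, 9916524 to 9921967, plus strand), a BED-type zinc finger gene, was at the low end of the list throughout. Its 3 joint summits had signals of 32.5, 32.6 and 34.1, with ranks from 18397 to 20451 of 26266. The promoter summit, 604 bp upstream (32.5), lay in no peak of either replicate. The intron summit (32.6) was held by replicate 1 only, with 19.5, and the downstream one (34.1) by replicate 2 only, with 20.9. This gene was the only one of the 9 with no summit held by both replicates, and the nearest thresholded summit was 48380 bp away.

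The Blimp-1 homologue gene blmp-1 (WBGene00003847, chromosome I, 10409302 to 10414773, plus strand) had 4 joint summits, from 36.4 to 41.1. The highest lay in the 3′ UTR (41.1, replicates 33.02 and 20.3), and no joint summit fell in the promoter window. Each replicate listed a peak of its own in that window, but at places far apart. Replicate 1 had one 884 bp upstream with a signal of 16.4 (rank 27866 of 29600), and replicate 2 had one 41 bp upstream with a signal of 23.8 (rank 11580 of 26067). The replicates therefore did not share a promoter peak, and the nearest thresholded summit was 102432 bp from the gene.

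The Grainyhead gene grh-1 (WBGene00001707, chromosome I, 1258201 to 1268155, minus strand) had 9 joint summits, and 1 was held by both replicates. That one was also the highest (joint signal 49.8, rank 7050, replicates 20.5 and 28.6) and lay in the 3′ UTR. The others ran from 29.9 to 47.1 in joint signal. Replicate 1 alone held 5, replicate 2 alone held 1, and 2 lay in no replicate peak. No list placed a summit in a promoter window of grh-1. A thresholded summit stood 5869 bp from the gene with a signal of 115, just outside the 5000-bp flank, and the annotated 5′ end nearest to it was that of Y48G8AR.8.

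The molting effector genes had no joint summit in a promoter window. At mlt-10 (WBGene00015646, chromosome II, 546705 to 552032, plus strand) 5 joint summits had signals from 31.8 to 46.4. The highest, 2100 bp upstream and inside the neighbouring gene T27A1.3, was held by both replicates but unequally, with 15.9 in replicate 1 (rank 29406 of 29600) and 30.4 in replicate 2. A summit in a coding exon, 235 bp inside the gene and so just past the promoter window, had a joint signal of 33.7 and was held by replicate 2 only, with 26.5. No list placed a summit in the promoter window, and the nearest thresholded summit lay 291324 bp away, the farthest of the 9 genes.

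At the protease gene nas-37 (WBGene00003553, chromosome X, 9944844 to 9949063, minus strand) 1 summit stood above the rest. It lay in a coding exon, 1676 bp inside the gene, with a joint signal of 60.2 and rank 4266. Replicate 1 gave 27.8 and replicate 2 gave 30.3, and all 3 of these lists put the summit at the same base. The other 6 joint summits ran from 30.8 to 40.8, and 1 of them was held by both replicates. No joint summit lay in the promoter window, where replicate 1 alone had a peak of signal 15.9 at 799 bp upstream, at rank 29512 of 29600. The nearest thresholded summit was 9648 bp from the gene.

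Ordered by their highest joint signal in reach, the genes ran myrf-1 (165), mab-10 (89.8), pan-1 (80.7), lin-29 (79.7), nas-37 (60.2), grh-1 (49.8), mlt-10 (46.4), blmp-1 (41.1) and bed-3 (34.1). The median of 60.2 stood against 51.7 over the 17776 protein-coding genes with any joint summit in reach. Below myrf-1 the replicates kept this order only in part. At the highest summits of mab-10, pan-1 and lin-29, replicate 1 gave 43.7, 43.7 and 46.1, highest at lin-29, and replicate 2 gave 38.2, 39.5 and 32.8, lowest at lin-29. These 3 genes therefore do not differ beyond the replicates' spread. At nas-37, with 27.8 and 30.3, both replicates were below all 3 and above grh-1, with 20.5 and 28.6. They did not both place nas-37 above blmp-1, where replicate 1 gave 33.02, or above mlt-10, where replicate 2 gave 30.4. At grh-1, mlt-10 and blmp-1 the replicates ran in opposite orders, with replicate 1 highest and replicate 2 lowest at blmp-1 (33.02 and 20.3). At myrf-1 both replicates were above all of these values. For 5 of the 9 genes, lin-29, mab-10, bed-3, grh-1 and pan-1, the highest summit lay nearer to an annotated 5′ end of another protein-coding gene than to one of their own. The same held for 66.9% of the 17776 genes with a joint summit in reach. Over single summits it held for 30 of the 63 (47.6%), against 64.6% over all genes and the summits in their reach.

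**Figure D2:**
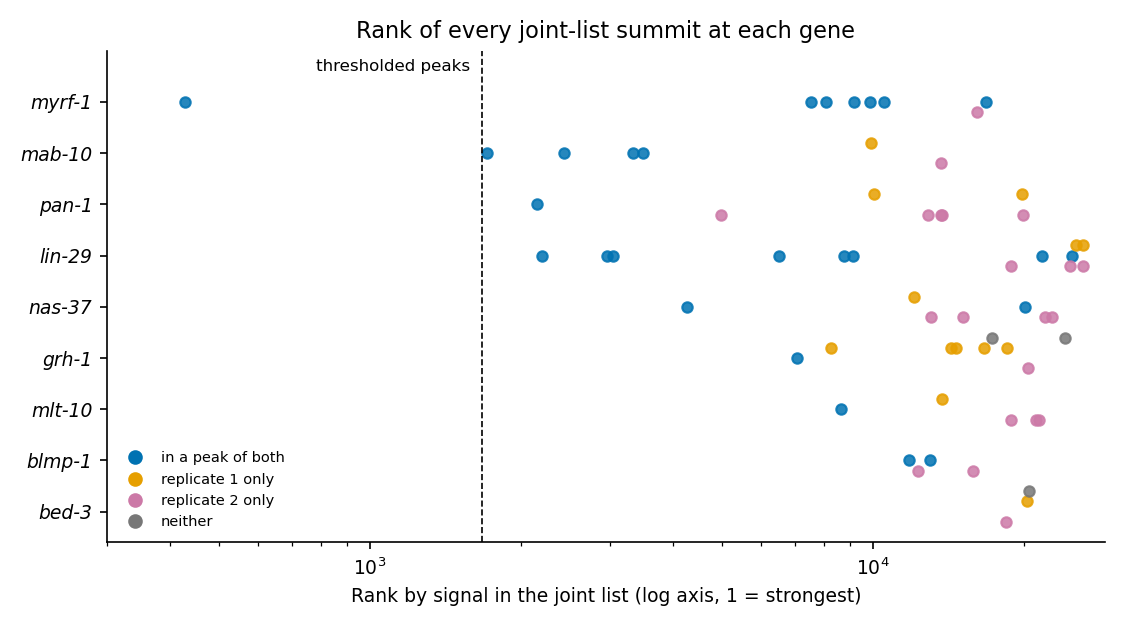
Rank by signal in the joint list (x axis, log scale, 1 is the strongest of 26266) of every joint summit in the body or 5000-bp flanks of each gene (y axis, ordered by highest summit). Colours show which replicates hold the summit, with a small vertical offset between them, and the dashed line marks rank 1667, the end of the thresholded peaks. A single point, at myrf-1, lies left of the line, and the nearest one right of it is the mab-10 flank summit at rank 1710.

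The replicates shared the stronger summits more often than the weaker ones, at these genes as over the whole joint list. Joint signal was called on both replicates together, so it is not independent of their support. Of the 63 joint summits, 26 were held by both replicates (41.3%, Wilson 95% interval 29.96 to 53.6), 13 by replicate 1 only, 21 by replicate 2 only and 3 by neither. Over the whole joint list 43.8% were held by both, a share inside that interval. The share depends on the rule for support. Where each replicate's own summit had to lie within 100 bp it was 27.0%, against 31.0% of all joint summits, and with the stronger part of each replicate list it was 25.4%, against 23.1% of all. Among the 30 summits within the top 13133 ranks of the joint list, 22 were held by both (73.3%), against 72.2% of all summits of those ranks. Among the 33 lower ones, 4 were (12.1%), against 15.4% of all. The interval covers counting error only, and summits of 1 gene are not independent.

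Promoter summits were also counted in each replicate's own list. In the replicate 1 list 4 of the 9 genes had a promoter summit (mab-10, blmp-1, myrf-1 and nas-37), against 37.9% of all genes. In the replicate 2 list 5 had one (lin-29, mab-10, blmp-1, myrf-1 and pan-1), against 34.9% of all genes. A promoter summit in at least 1 of the joint and replicate lists was found at 7 of the 9 genes, all but grh-1 and mlt-10, against 51.2% of all genes. Only mab-10 and myrf-1 had a promoter summit in the joint list and in each replicate list (22.2%), against 21.4% of all genes. The same 2 genes had a joint promoter summit that lies inside a peak of both replicates, against 18.9% of all genes.

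At the 26 summits held by both, 23 distinct pairs of replicate peaks were found, since neighbouring summits can share a replicate peak. Replicate 1 had the higher signal in 15 pairs and replicate 2 in 8. The signals of the 2 lists were not put on 1 scale, and this split was not counted over all joint summits. The ratio of replicate 2 to replicate 1 ran from 0.614, at the 3′ UTR of blmp-1, to 1.91, upstream of mlt-10, with a median of 0.971, against 1.01 over all joint summits held by both. At blmp-1 replicate 2 listed overlapping peaks of 24.7 and 20.3, and only the weaker one, used here, covers the joint summit. For the myrf-1 promoter summit replicate 2 was the lower, and for the strongest intron summit of lin-29 the values were nearly equal.

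**Figure D3:**
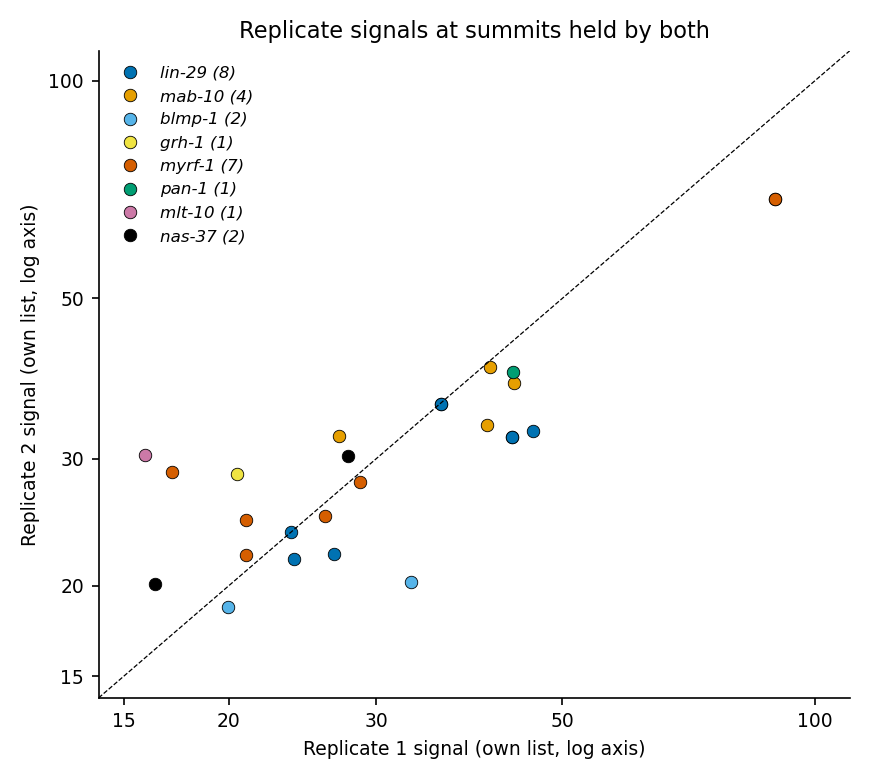
Signal in replicate 1 (x axis) and replicate 2 (y axis), each from its own list and on a log scale, at the 26 joint summits held by both, coloured by gene with the number of summits in brackets. The dashed line marks equal signal, and points of neighbouring summits in the same replicate peaks coincide. The myrf-1 promoter summit (89.7 and 68.6) stands apart at the upper right, and the mlt-10 summit (15.9 and 30.4) lies farthest above the line.

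Counted per length, joint summits were denser around 8 of these genes than around the median gene. The 9 genes had a median of 4.51 summits per 10000 bp of body and flanks (range 1.94 to 5.91), against a median of 2.44 over all protein-coding genes (25th to 75th percentile 0.958 to 3.87). Only bed-3 was below the median of all genes, at 1.94. The density was highest at pan-1 (5.91), myrf-1 (5.14) and nas-37 (4.92). With summits held by both replicates only, the median was 1.29 against 0.851, and 5 of 9 were above the median of all genes. There myrf-1 led (4.50) with lin-29 (2.89) and mab-10 (2.45), while pan-1 (0.738), mlt-10 (0.652), grh-1 (0.501) and bed-3 (0) were below the median. Neighbouring summits that share the same replicate peaks, found at lin-29 and myrf-1 but not at mab-10, were each counted. The order of lin-29 and mab-10 rests on this way of counting.

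**Figure D4:**
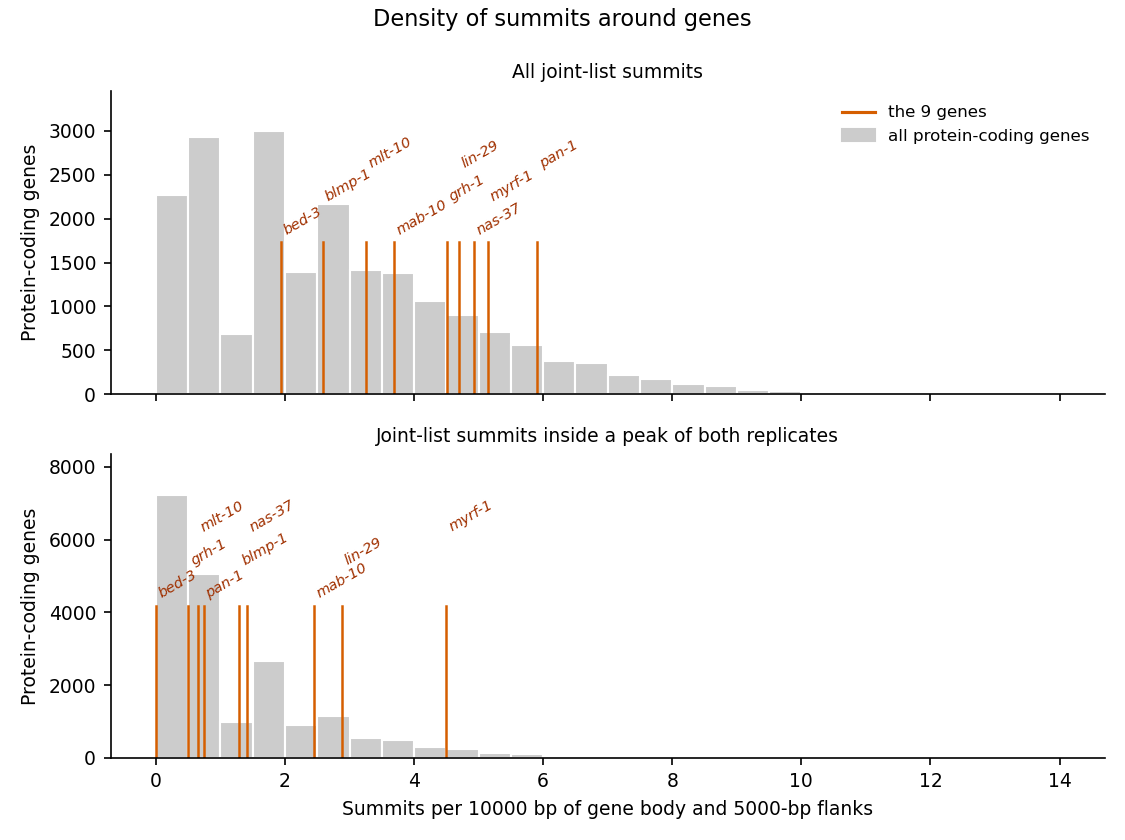
Joint summits per 10000 bp of gene body and 5000-bp flanks (x axis) for the 9 genes (orange lines, named) and all 19973 protein-coding genes (grey bars, number of genes on the y axis), for all joint summits (top) and those held by both replicates (bottom). In the top panel 8 of the 9 lie above the median of all genes, 2.44. In the bottom panel bed-3, grh-1, mlt-10 and pan-1 fall below the median of 0.851, and myrf-1 is the highest of the 9.

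The windows of the 63 summits, again 50 bases to each side, were searched for 3 words of 6 bases, none of which contains another. GAGAGA, on either strand, occurred in 8 of the 63 windows (12.7%), against 10.5% of all 26266 windows. GACGCA occurred in 1 (1.59%), the myrf-1 intron summit, against 4.10% of all. CACGTG occurred in 1 (1.59%), downstream of pan-1, against 2.96% of all. A match is a description of the letters, not a site.

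Among 30 other molting genes, 2 had a thresholded summit in the promoter window (6.67%), against 4.34% of all genes. These were myrf-2, the paralogue of myrf-1, with a joint signal of 110.1 (replicates 58.6 and 60.1) at a summit 248 bp upstream of an internal 5′ end, and nhr-41, a nuclear hormone receptor gene, with 118.8 (replicates 53.9 and 70.2) at 122 bp inside. Both paralogues of the myrf family thus had a thresholded promoter summit, the one at myrf-1 upstream of the gene and the one at myrf-2 within an intron. In the body or 5000-bp flanks 6 of the 30 had a thresholded summit (20.0%), against 16.4% of all genes. The highest was near wrt-5, a hedgehog-related gene (230.1, replicates 77.8 and 154). Beside nhr-41 and myrf-2, the others were noah-1, which encodes a protein of the apical matrix (159.7, replicates 60.3 and 100.5), the kinase gene nekl-3 (121, replicates 48.8 and 71.7) and the nuclear receptor gene nhr-67 (109.98, replicates 43.3 and 70.3). The summits of wrt-5, noah-1, nekl-3 and nhr-67 lay outside the promoter windows of the molting genes and inside those of neighbours, namely pcn-1, vpr-1, F17E5.2, and the pair C08F8.9 and cpt-2. With the joint list, 13 of the 30 had a promoter summit (43.3%), against 35.0% of all genes.

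Among 16 other genes of the seam and of the larval-to-adult switch, 2 had a thresholded promoter summit (12.5%), against 4.34% of all genes. They were lin-46 (joint signal 142, replicates 71.3 and 68.4, summit 837 bp upstream), which acts downstream of lin-28 in the timing pathway, and the nuclear receptor gene nhr-85 (142, replicates 81.5 and 65.3, 926 bp upstream of an internal 5′ end). This lin-46 summit also lay in the promoter windows of R186.3 and R186.8. In the body or flanks hbl-1, a Hunchback-like timing factor, and daf-12, the nuclear receptor of the steroid signal, also had a thresholded summit. This makes 4 of 16, against 16.4% of all genes. The hbl-1 summit had a joint signal of 179 (replicates 82.3 and 96.6) at 1907 bp upstream. A daf-12 summit had 123 (replicates 62.0 and 60.8) in an intron. At lin-46 and daf-12, 2 thresholded summits each lay in reach, and not all of these are described. With the joint list 10 of the 16 had a promoter summit (62.5%), against 35.0% of all genes. Each of the thresholded summits named here was held by both replicates, and genes with more 5′ ends have more sequence in which a summit can fall.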

How the data were processed

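The deposited files were 4 peak lists in narrowPeak layout on ce11. Text files that the authors deposited state that each replicate, and both together, were set against 1 control alignment to call peaks, and that the thresholded list was derived from the resulting lists. On the caller, its settings, the aligner and any filter the labels and files give no statement. Both signal per peak and the −log10 q-value are the authors' and were used to describe and rank peaks within a list. Signals of different lists were not put on 1 scale, and the joint signal is not the mean of the replicates.

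Summits were assigned to protein-coding genes of Ensembl release 115 (WBcel235, the same assembly as ce11) by promoter window (1000 bp upstream to 200 bp downstream of any transcript's 5′ end), gene body and 5000-bp flanks. A summit can count for several genes. The assignment was tested on simulated peaks. Python 3.11.15, NumPy 2.4.6, pandas 2.3.3, SciPy 1.17.1 and Matplotlib 3.10.9 were used. With 1 group and 2 biological replicates no test between groups was made. Shares of all 19973 genes stand beside each count, and Wilson 95% intervals beside the share of summits held by both replicates. The 9 genes, the further lists and the words searched were chosen with earlier results of these data known. From the further lists, every gene with a thresholded summit in its body or flanks is named. For myrf-1, the 3 genes nearest in promoter signal are named. Alternatives changed the window, the 5′ ends used, the overlap rule, the flank, the peaks kept and the rule for replicate support. Read depth and the control were not analysed here.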

Additional observations from a re-analysis of the deposited data

How the results depend on the processing

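Of 25 alternatives, 17 gave a value close to the reported one and 8 moved it. A count was called close by its size alone, whichever genes made it up, so 5 was close to 4. A share was called close if it lay inside the Wilson interval of the reported share. The thresholded promoter count remained 1, with myrf-1 as the gene, in all 6 alternatives run for it. Within gene bodies alone the count of genes with a thresholded summit was 0, since the myrf-1 summit lies upstream. The joint promoter count of 4 depended on the window and on weak peaks. It was 2 where the window ran 500 bp up and 100 bp down from a 5′ end (23.5% of all genes). It was 7 where it ran 2000 bp up and 500 bp down (51.2% of all genes), which adds lin-29, grh-1 and mlt-10. It was 2, mab-10 and myrf-1, with the stronger 13133 peaks only (21.3% of all genes). It was also 2, the same genes, with summits inside a peak of both replicates (18.9% of all genes). With 1 replicate's own list in place of the joint list it was 4 to 5, but the genes were not the same. Without replicate 2 they were mab-10, blmp-1, myrf-1 and nas-37, and without replicate 1 they were lin-29, mab-10, blmp-1, myrf-1 and pan-1. With peaks that overlap the window by 1 bp or more, mlt-10 was added, and the share of all genes was 41.2%. In the single-replicate lists the number of summits in reach was 55 to 61. Counting gene bodies only left 24 summits. The share held by both replicates was 27.0% where a replicate summit had to lie within 100 bp, and 25.4% with the stronger part of each replicate list. No paired analysis was possible because there is a single group. With 2 replicates, pooled lists and no read depth, a gene without a summit is one where no peak was listed, not one shown to be unbound.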

Other observations

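Summits in these lists kept a minimum distance. The smallest gap between neighbouring summits was 199 bp in each of the 4 lists, and 970 gaps of the joint list (3.69%) lay within 5 bp of 200 bp, against 1830 in the next 100 bp above that. In these 970 pairs the weaker summit had a median of 0.573 of the stronger one's signal. Of the summits near the molting and switch genes, 6 pairs had a gap of 199 to 213 bp. At lin-29 there were 2 pairs 200 bp apart, with joint signals of 70.1 and 31.5 in hmg-12 and 69.3 and 29.4 in the intron. The myrf-1 promoter pair stood 199 bp apart (165 and 45.3), and another myrf-1 pair was 213 bp apart (44.1 and 35.6). The grh-1 pair was 204 bp apart (47.1 and 34.1) and the nas-37 pair 200 bp apart (32.8 and 31.3). With overlapping joint peaks merged, the 63 summits near the 9 genes became 55.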
